A study of Mus musculus with 4 samples.

Results

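The genes described here encode the matrix metalloproteinases (MMPs), the ADAM and ADAMTS proteases and the TIMP inhibitors, without Mmp8 and Mmp9. The rule for them reads gene symbols and no measured value, taking every non-control probe named as an Mmp, Timp, Adam, Adamts or Adamtsl gene, which gave 75 genes on 128 probes of the 27568 genes on the array. Of the 75, 50 were well above background on all 4 arrays in at least 1 of the 2 dyes. A stricter rule, well above background in the Th3 samples of all 4 arrays or in the control samples of all 4, left 45 members among 17627 genes tested.

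The study compared kidney RNA from control mice with that from Th3 mice, a model of beta-thalassemia in which both adult beta-globin genes, beta-major and beta-minor, are deleted. There were 4 Th3 and 4 control samples on 4 two-colour Agilent arrays, with 1 sample of each kind on every array; Th3 RNA was labelled with Cy5 on arrays 1 and 2 and with Cy3 on arrays 3 and 4. The labels give neither zygosity, age nor the control strain. Whether the 4 samples of a kind are 4 separate mice is not stated in the labels, so the spread behind the p-values may be technical. The main fit has a dye term for the orientation, so its p-values measure only the spread within each pair of arrays. They leave out the difference between the 2 pairs, which the SD over 4 arrays includes. The dye orientation and the pair of arrays cannot be told apart.

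MMPs are zinc proteases that cut collagens, other matrix proteins and each other's precursors, and TIMPs bind and block their active sites. ADAMs are membrane-bound relatives, several of which release the outer parts of receptors, adhesion molecules and growth factors, while others serve in sperm maturation and fertilisation. ADAMTS proteases are secreted and include enzymes that cleave proteoglycans such as aggrecan and versican, and the ADAMTS-like proteins share their ancillary domains but have no protease domain.

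Sequences come first for some called members whose probes gave unlike values or whose promoter window held a motif, as a description without a test. Adam5 and Adamts8 had the lowest ratios, and the probes of each gene did not all give the same value. The first 30 bases of each 60-base probe follow, read from the deposited scanner files, with no part in capitals.
Adam5, brightest probe: tctacatatctctgcccttacttgtgatga
Adam5, dim probe: ggccctgatatgttttgtttgagagcatca
Adamts8, brightest probe: tgttggcagtgaacgccaaagcaagctcca
Adamts8, second kept probe: caataatcaatctacctcacagcggggaaa
Adamts8, dim probe: acttgttacctacaaagaggagtctcttaa

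On the mouse build mm8, the build of the array annotation, the brightest Adam5 probe lies at chr8:26209700-26209759 and the dim one spans chr8:26213066-26247122. The brightest and the second Adamts8 probe lie side by side at chr9:30712200-30712259 and chr9:30712141-30712200, and the dim one at chr9:30690921-30690980. Which exon or untranslated part each probe matches was not analysed here.

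Mmp3 and Mmp13, both on chromosome 9 with Mmp12, which was not tested, between their probes, were the called members whose promoter window held an AP-1 motif. Also on chromosome 9, Mmp7, which did not pass, and Mmp1a, Mmp10 and Mmp12, which were not tested, had a window with it too. AP-1 is the Fos and Jun dimer known to act on stromelysin and collagenase promoters. The bases upstream of each annotated start are from RefSeq on GRCm38.p6, plus strand, at chr9:7272264-7272513 for Mmp13 and chr9:7445572-7445821 for Mmp3, with the motif in capitals.
Mmp13: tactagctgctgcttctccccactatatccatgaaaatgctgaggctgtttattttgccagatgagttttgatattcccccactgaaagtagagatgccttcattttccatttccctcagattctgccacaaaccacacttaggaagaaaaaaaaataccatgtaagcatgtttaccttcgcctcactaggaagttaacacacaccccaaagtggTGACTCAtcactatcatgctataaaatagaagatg
Mmp3: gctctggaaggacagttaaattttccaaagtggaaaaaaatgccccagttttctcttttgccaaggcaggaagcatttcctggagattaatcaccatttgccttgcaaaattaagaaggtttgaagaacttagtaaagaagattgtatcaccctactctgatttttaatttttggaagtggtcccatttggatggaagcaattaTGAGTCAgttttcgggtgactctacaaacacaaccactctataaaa

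Th3 kidneys had less RNA of 12 members and more of 2. Those lower were the gelatinase Mmp2, the collagenase Mmp13, the stromelysin Mmp3, the ADAMs Adam5, Adam8 and Adam11, the ADAMTS proteases Adamts5 and Adamts8, the ADAMTS-like genes Adamtsl2 and Adamtsl5, and the inhibitors Timp1 and Timp3. The 2 higher were the membrane-type protease Mmp14 and the aggrecanase Adamts4. These calls are at an adjusted p under 0.05 in limma, with Benjamini-Hochberg adjustment over all 17627 genes. They make up 31.1% of the 45 tested members, against 21.5% of all genes tested. By direction, 26.7% of the members were lower against 10.6% of all genes, and 4.44% were higher against 10.9%.

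The median log2 ratio of the 45 members was -0.02, and that of all genes tested 0.0013. Of the 31 members that did not pass, 27 had a log2 ratio within 0.2 of 0. Adam5 and Adamts8 were the 2 called members that differed by 2-fold or more; 6 did with Agilent's processed signals, and 5 in the authors' deposited table. In whole tissue, fewer cells of a type and less RNA per cell cannot be told apart.

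**Figure D1:**
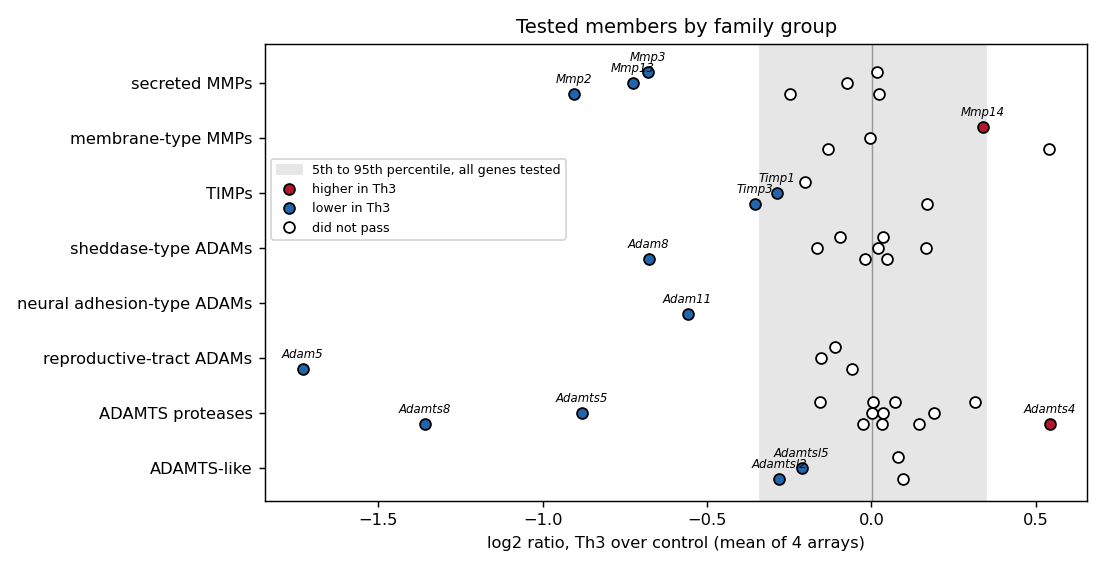
Mean log2 ratio of Th3 over control (x axis, 4 arrays) for each of the 45 tested members, in rows by family group; filled points passed the test and the grey band runs from the 5th to the 95th percentile of all genes tested, -0.34 to 0.35. Adam5 and Adamts8 lie farthest to the left, and Adamts4 is the called point farthest to the right.

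Among the genes grouped here as secreted MMPs, Mmp23 included, 7 of 13 on the array were tested, 3 were lower and the other 4 did not pass. Mmp2, the gelatinase that also cuts basement membrane collagen, had log2 ratios of -0.83, -0.75, -0.79 and -1.26 on arrays 1 to 4. Its normalised log2 level was 7.29 to 7.56 in the Th3 samples and 8.11 to 8.73 in the controls, so the groups did not overlap. The mean was -0.91 ± 0.24 (SD, n = 4; limma adjusted p = 0.00191), which is 53.4% of control. The ratio on array 4 stood apart from the 3 others, and without that array the fitted log2 ratio was -0.79.

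Mmp13, an interstitial collagenase, had log2 ratios of -0.85, -0.78, -0.93 and -0.34, with a mean of -0.73 ± 0.26 (SD, n = 4; limma adjusted p = 0.00562). Every array was below 0, array 4 least so. Mmp3, a stromelysin that cuts proteoglycans and activates other MMPs, had log2 ratios of 0.09, -0.04, -1.25 and -1.52. Arrays 1 and 2 were thus near 0 and arrays 3 and 4 far below it.

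The Mmp3 level in the Th3 samples ran from 6.94 to 7.19 on the log2 scale. In the controls it was 7.10 and 7.04 on arrays 1 and 2 but 8.20 and 8.46 on arrays 3 and 4, so the 2 high values were those of the control samples on arrays 3 and 4. Its mean of -0.68 ± 0.82 (SD, n = 4) passed in limma with the dye term (adjusted p = 0.00205). It was not past the threshold without that term (limma adjusted p = 0.166) or in the authors' deposited table (adjusted p = 0.183). Mmp3 was also the 1 member whose ratio differed between the 2 pairs of arrays (dye term, limma adjusted p = 0.0357), a call made for 0.993% of all genes.

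The members of this group that did not pass were Mmp7, Mmp11, Mmp23 and Mmp28. Mmp7, or matrilysin, an epithelial MMP named after its values were seen, had log2 ratios of 0.62, -0.02, -0.13 and -0.38 and no common sign. Mmp11, stromelysin-3, was at -0.25 ± 0.19 (SD, n = 4; limma adjusted p = 0.0777).

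Of 6 membrane-type MMPs, 4 were tested, and Mmp14 alone passed, as higher. Mmp14, the membrane-type protease best known for activating the Mmp2 precursor, had log2 ratios of 0.34, 0.49, 0.30 and 0.22. Its level was 10.43 to 10.49 in Th3 and 9.94 to 10.26 in controls, without overlap, and the mean was 0.34 ± 0.11 (SD, n = 4; limma adjusted p = 0.00987). Mmp14 and Mmp2 thus differed from control in opposite directions on all 4 arrays. A second Mmp14 probe gave 0.13 ± 0.19 (SD, n = 4) and did not pass (limma adjusted p = 0.275), and the call of Mmp14 was lost when log ratios were scaled between arrays (limma adjusted p = 0.0564).

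Mmp17, singled out after its values were seen, had a log2 ratio of 2.09 on array 1 and of 0.00, 0.07 and 0.00 on arrays 2 to 4 to 2 decimals. It did not pass (limma adjusted p = 0.239), and its other probe averaged 0.06. Mmp15 and Mmp24 lay within 0.2 of 0.

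All 4 TIMPs were tested, 2 were lower and 2 did not pass. Timp3, the inhibitor that is held in the matrix and also blocks several ADAMs and ADAMTS proteases, had log2 ratios of -0.30, -0.41, -0.28 and -0.43. Its level was 14.41 to 14.51 in Th3 and 14.71 to 14.91 in controls. The 4 arrays lay close together, with a mean of -0.35 ± 0.07 (SD, n = 4; limma adjusted p = 0.00904).

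Timp1, an inducible soluble inhibitor, had log2 ratios of -0.01, -0.04, -0.62 and -0.48, and arrays 1 and 2 were near 0 while arrays 3 and 4 were lower. The mean of -0.29 ± 0.31 (SD, n = 4) passed with the dye term (limma adjusted p = 0.0147), but not without it (limma adjusted p = 0.16). The levels of Timp1 in Th3 and control samples overlapped, and its second probe gave -0.12 ± 0.08 (SD, n = 4; limma adjusted p = 0.162). Timp2, which takes part in the activation of the Mmp2 precursor by Mmp14, was at -0.20 ± 0.11 (SD, n = 4) and just missed the threshold (limma adjusted p = 0.0519). Timp4 was at 0.17 ± 0.19 (SD, n = 4; limma adjusted p = 0.175).

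**Figure D2:**
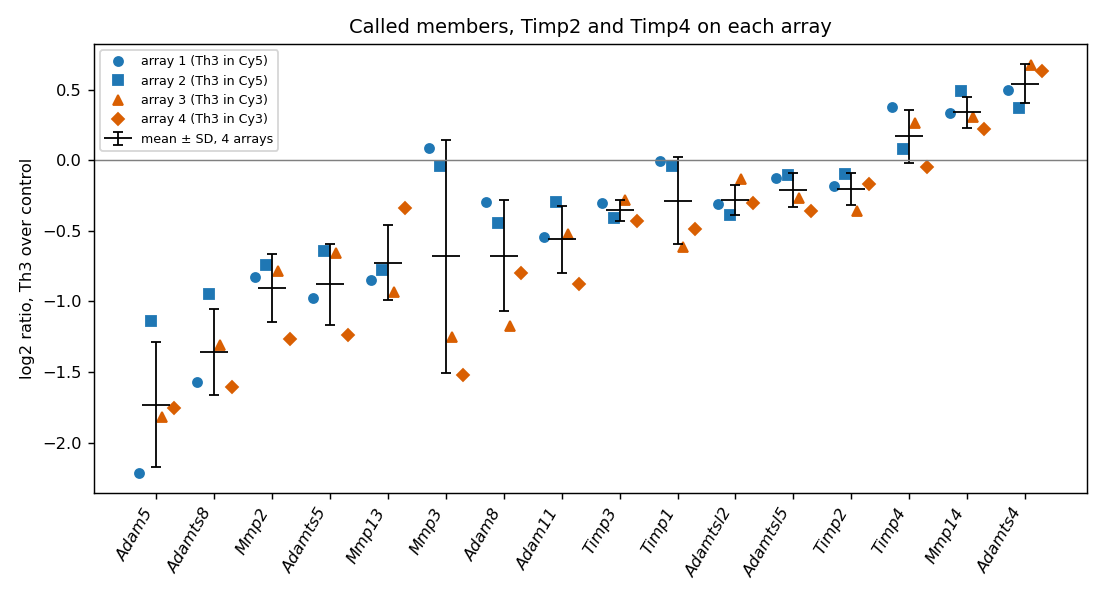
Log2 ratio of Th3 over control (y axis) on each array for the 14 called members, Timp2 and Timp4; blue marks arrays 1 and 2, orange arrays 3 and 4, and black bars the mean ± SD over 4 arrays. Mmp3 and Timp1 have their blue points near 0 and their orange points below it, whereas the 4 points of Timp3 or Mmp14 lie close together.

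The ADAMs known for shedding had 9 genes on the array, of which 8 were tested, 1 was lower and the other 7 did not pass. Adam8, a protease of leukocytes and osteoclasts, had log2 ratios of -0.30, -0.44, -1.18 and -0.80, with a mean of -0.68 ± 0.39 (SD, n = 4; limma adjusted p = 0.00329). All arrays were below 0, arrays 3 and 4 more so. The main shedding enzymes, named after their values were seen, did not pass: Adam10, the alpha-secretase, was at -0.02 ± 0.02 (SD, n = 4), and Adam17, which releases TNF, was at -0.10 ± 0.12 (SD, n = 4). Adam9 was at 0.17 ± 0.15 (SD, n = 4; limma adjusted p = 0.0713).

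Adam11, an ADAM of neural adhesion type without protease activity, was the 1 tested gene of 3 in its group. Its log2 ratios were -0.55, -0.30, -0.52 and -0.87, and its mean -0.56 ± 0.24 (SD, n = 4; limma adjusted p = 0.00639). All 3 of its probes were lower and passed.

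The ADAMs known from testis and epididymis made up 17 genes, of which 4 were tested, 1 was lower and the other 3 did not pass. Adam5 had log2 ratios of -2.21, -1.14, -1.82 and -1.76. Its level was 6.42 to 6.92 in Th3 and 8.06 to 8.67 in controls, a wide gap without overlap. The mean of -1.73 ± 0.44 (SD, n = 4; limma adjusted p = 0.00189) is 30.1% of control. With Agilent's processed signals the gene was at -3.30, so this percentage depends on the processing.

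The call of Adam5 rests on 1 probe, since the dim one was well above background on 2 arrays in Th3 and on 1 in controls and averaged -0.04 ± 0.15 (SD, n = 4). Adam1a, Adam4 and Adam21 did not pass and lay within 0.2 of 0. The marker list of testis and epididymis had 11 genes on the array, of which 3 were tested and 1, Tnp1, was lower, at -0.51. Prm1 and Defb1 were the tested genes that did not pass, at -0.04 and -0.06 (limma adjusted p = 0.717 and 0.677). The 8 not tested, including Prm2, Tnp2 and Lcn5, were not well above background by the rule for testing.

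Adipose markers were uneven beside Adam5. Ucp1, the uncoupling protein of brown fat, had log2 ratios of -4.02, -2.01, -3.78 and -3.80. Cidea was also lower, at -1.11 ± 0.95, while Retn and Adipoq were higher, at 0.64 ± 0.35 and 1.00 ± 1.02 (SD, n = 4). Adipoq was below 0 on array 4, at -0.47, and Cidea was near 0 on array 2, at -0.01. Thus 2 of 7 adipose genes were lower and 2 higher. The summed level of the 7 ran from 75748 to 100297 in Th3 and from 34960 to 132484 in controls, on the normalised intensity scale. Their part in the Adam5 result was not tested.

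Among the ADAMTS proteases, 13 of 18 genes were tested, 2 were lower and 1 higher. Adamts8, a protease first described for blocking vessel growth, had log2 ratios of -1.57, -0.95, -1.31 and -1.61. Its level was 6.78 to 6.98 in Th3 and 7.93 to 8.44 in controls, without overlap. The mean was -1.36 ± 0.30 (SD, n = 4; limma adjusted p = 0.00138), which is 39.0% of control. The second kept probe gave -0.81 ± 0.24 (SD, n = 4) and also passed, while the dim probe averaged -0.03. With Agilent's processed signals Adamts8 was at -2.62, so its percentage of control depends on the processing.

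The aggrecanases went both ways. Adamts5 had log2 ratios of -0.98, -0.64, -0.66 and -1.24, a mean of -0.88 ± 0.28 (SD, n = 4; limma adjusted p = 0.00414), and its second probe was lower too, at -0.39. Adamts4 had log2 ratios of 0.50, 0.37, 0.67 and 0.63, and a mean of 0.54 ± 0.14 (SD, n = 4; limma adjusted p = 0.0023). For both genes the Th3 and control levels did not overlap. Adamts1, which also cleaves aggrecan and versican, was at -0.02 ± 0.19 (SD, n = 4; limma adjusted p = 0.856).

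Adamts15, singled out after its values were seen, had a log2 ratio of 1.07 on array 3 against -0.04, 0.10 and 0.12 on the others, and did not pass (limma adjusted p = 0.166). Of 5 ADAMTS-like genes, 4 were tested and 2 were lower. Adamtsl2, which binds a TGF-beta carrier protein, was at -0.28 ± 0.11 (SD, n = 4; limma adjusted p = 0.0182), and Adamtsl5 at -0.21 ± 0.12 (SD, n = 4; limma adjusted p = 0.0333). Both had 4 arrays below 0. Adamtsl2 lost its call without array 2 or array 4 (limma adjusted p = 0.0631 and 0.05), with median centring (0.0557) and with scaling between arrays (0.0582). Adamtsl5 lost its call when any 1 array was left out (limma adjusted p from 0.0523 to 0.156).

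**Figure D3:**
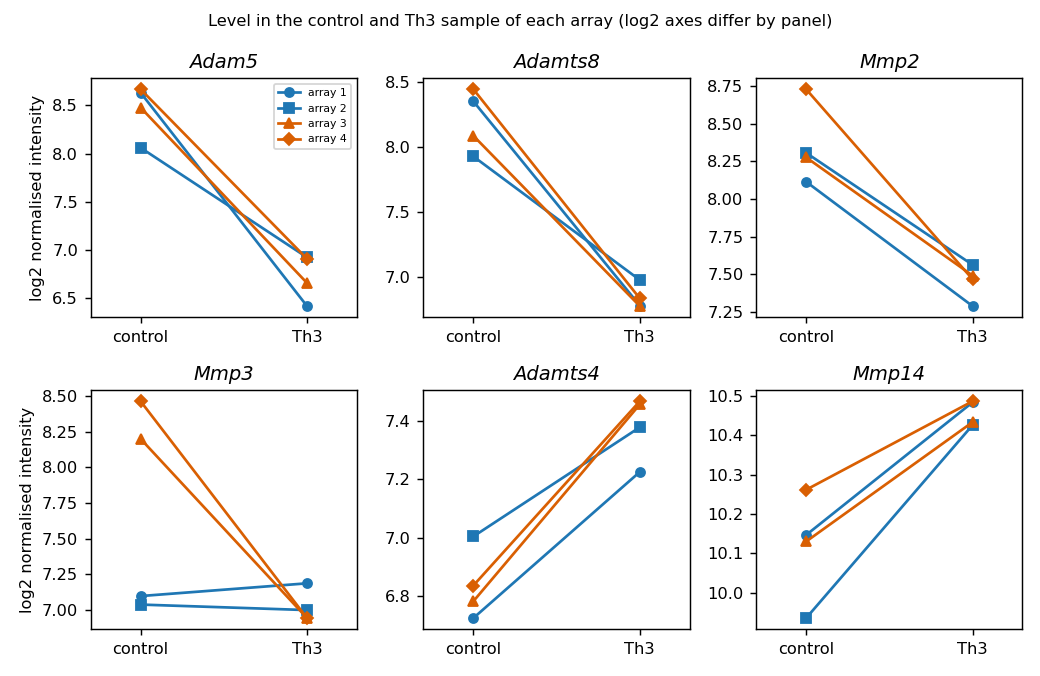
Normalised log2 intensity (y axes, which differ by panel) of the control and the Th3 sample of each array, joined by a line, for 6 members. Adam5, Adamts8 and Mmp2 fall and Adamts4 and Mmp14 rise along all 4 lines, whereas Mmp3 falls along those of arrays 3 and 4 and is nearly flat along those of arrays 1 and 2.

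Over the 45 tested members, 23 had 1 sign on all 4 arrays, 18 of them lower and 5 higher; the shares of all genes tested are 37.1% for either sign, 17.4% for lower and 19.7% for higher. Th3 and control levels did not overlap for 14 of the 45, or 31.1%, against 21% of all genes tested. These were the called members other than Mmp3 and Timp1, together with Adam15 and Timp2, which did not pass.

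Macrophage and lymphocyte markers had, like Mmp3, Timp1 and Adam8, lower ratios on arrays 3 and 4 than on arrays 1 and 2. The pattern was not limited to them, as Thy1, Lum and Postn of the fibroblast list and Umod of the kidney list had it too. Of all genes tested, 10.6% were lower and 10.9% higher. Of 9 tested macrophage markers, 6 were lower, with a median log2 ratio of -0.01 on arrays 1 and 2 and of -0.66 on arrays 3 and 4. Their summed normalised intensity ran from 11802 to 22402 in Th3 and from 14237 to 36248 in controls, and Itgam was not well above background. Of 7 tested lymphocyte markers, 5 were lower, with medians of -0.16 and -0.97, summed at 1852 to 2165 in Th3 and 2374 to 9155 in controls, and Cd79a was not well above background. Of 5 tested neutrophil markers, 2 were higher, with medians of 0.06 and 0.29, summed at 1153 to 1942 in Th3 and 649.7 to 1685 in controls, and Ngp, Elane, Mmp8 and Mmp9 were not well above background. The part of these cell types in the results for Mmp3, Timp1 and Adam8 was not tested.

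The fibroblast and pericyte markers, for the cells that make much of Mmp2 and the ADAMTS proteases, were all 10 tested, and 5 were lower and 2 higher. Col3a1 was lower on all 4 arrays, at -0.99 ± 0.23 (SD, n = 4), and Dcn was higher, at 0.55 ± 0.24 (SD, n = 4). Their summed intensity ran from 31086 to 34914 in Th3 and from 27371 to 32371 in controls, so the summed ranges overlapped. Their part in the Mmp2 result was not tested. Of 8 kidney epithelial markers, all measured, 1 was lower (Slc34a1, a phosphate transporter of the proximal tubule). Umod did not pass, at 0.35 on arrays 1 and 2 and -0.82 on arrays 3 and 4. All 6 endothelial markers were tested and did not pass, with a median log2 ratio of 0.06.

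**Figure D4:**
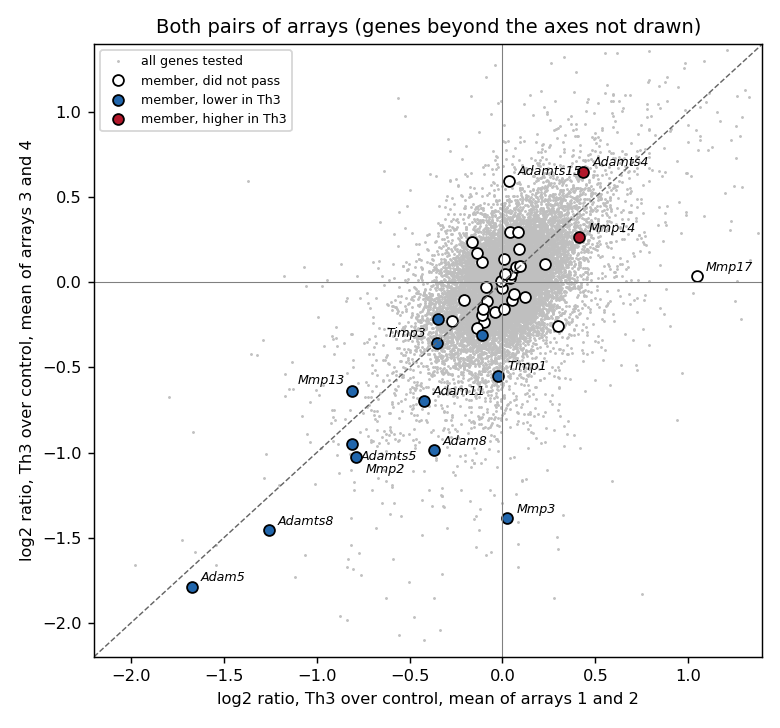
Mean log2 ratio of Th3 over control on arrays 1 and 2 (x axis) against arrays 3 and 4 (y axis), with all genes tested in grey and the members as larger points; the dashed line marks equal values. Adam5, Adamts8, Mmp2 and Mmp13 lie near the line, Mmp3 lies at 0.03 and -1.39, and Mmp17 and Adamts15, which did not pass, lie out along 1 axis each.

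Probes of the same gene were compared where more than 1 was kept, which was so for 16 members, and 0 members had probes called in opposite directions. The 5 called members with several kept probes were Adam11, Adamts5, Adamts8, Mmp14 and Timp1. Beside the brightest probes, which made the calls, they had 6 other kept probes. All 6 had the sign of the call and 4 passed on their own. In each of the 5 the brightest probe gave the ratio farthest from 0.

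**Figure D5:**
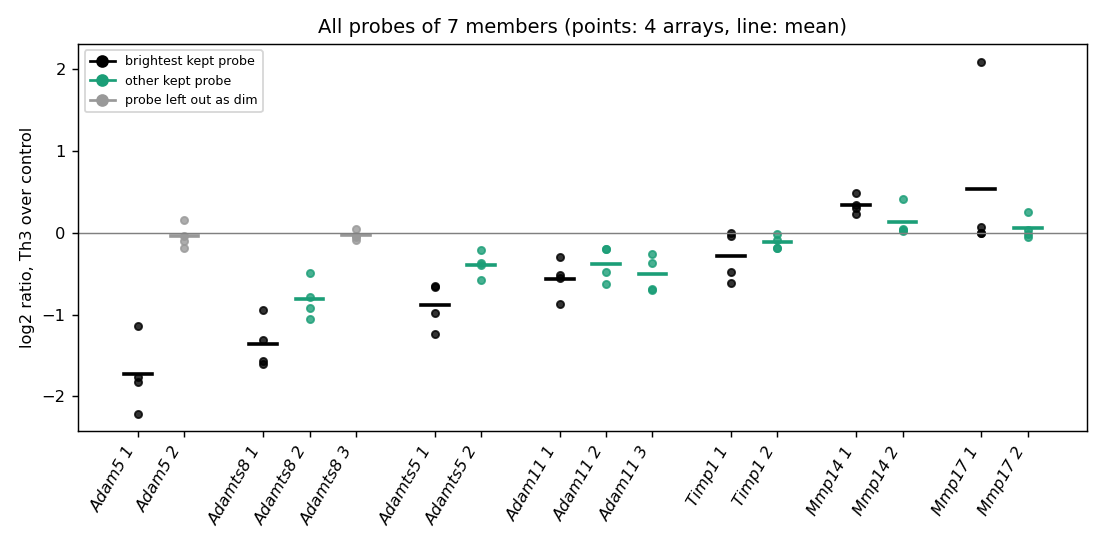
Log2 ratio of Th3 over control (y axis) on the 4 arrays for every probe of 7 members, with a line at the mean; black is the brightest kept probe, green another kept probe and grey a probe left out as dim. The left-out probes of Adam5 and Adamts8 lie near 0, and the high Mmp17 mean comes from 1 point of 1 probe.

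Some members lie next to each other in the genome, and called members had neighbours with other ratios. On mm8, the probes of Adamts8 and Adamts15 are 63128 bases apart on chromosome 9 and their log2 ratios differed by -1.67 ± 0.55 (SD, n = 4). On array 3, where Adamts15 stood apart at 1.07, the difference was -2.38. The probes of Adamts5 and Adamts1 are 67573 bases apart on chromosome 16 and differed by -0.86 ± 0.40. Those of Adam5 and Adam9 are 205598 bases apart on chromosome 8 and differed by -1.90 ± 0.53, with Adam32 between them not tested.

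Each of these 3 differences had 1 sign on all 4 arrays. The first gene of each pair had been called lower from these same arrays, so that sign was largely fixed in advance. A two-sided exact sign-flip permutation test gave p = 0.125 for each, the smallest p that 4 arrays allow, and 0.167 after Benjamini-Hochberg adjustment over the 4 pairs compared. For both reasons the test cannot decide whether neighbours differ. Tested neighbours left out of it were Mmp7 with Mmp3 or Mmp13, and Adam4 with Adam21. The 4th pair, Mmp13 and Mmp3, is 172930 bases apart on chromosome 9, and its difference of -0.04 ± 0.98 (SD, n = 4; exact permutation p = 1) changed sign between the 2 pairs of arrays.

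The promoter table held windows for 45 of the 75 members, from 250 bases before to 50 after a start. The AP-1 motif, TGAGTCA or TGACTCA, which are each other's reverse complement, was found in those of 9 member genes, and in 5.2% of all 32851 windows of that length. Of 8 called genes with a window, the 2 with the motif were Mmp13, 35 bases before its start, and Mmp3, 46 bases before it. Of the other genes with the motif, Mmp7 and Adam19 were tested and did not pass, at 0.02 each (limma adjusted p = 0.907 and 0.846). The rest, among them Mmp1a, Mmp10 and Mmp12, were not tested. The core of hypoxia response elements, ACGTG or CACGT on the other strand, was found in 9 member genes and in 19.6% of all windows. Among called genes it was in the windows of Mmp14 and Timp1. A match describes these letters only.

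Other genes of the pathway were taken from lists of relatives, regulators and substrates. The counts of these lists were not tested and stand beside 10.6% lower and 10.9% higher among all genes tested. Of 4 tested metzincin relatives, 2 were lower and 1 higher. The meprin subunits Mep1a and Mep1b, proteases of the proximal tubule brush border, were at -0.85 ± 0.20 and -0.55 ± 0.27 (SD, n = 4; limma adjusted p = 0.00215 and 0.0141), and Pappa, which cleaves IGF-binding proteins, was at 0.44 ± 0.10 (SD, n = 4).

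Of 19 activators and inhibitors of these proteases, 5 were lower and the other 14 did not pass. Pcolce2 and Pcolce, enhancers of procollagen processing, were at -0.72 ± 0.09 and -0.38 ± 0.09 (SD, n = 4). The others were the tetraspanins Tspan5 and Tspan17, which escort Adam10, and the proprotein convertase Pcsk7. Of 13 genes of the plasmin and cathepsin systems, 2 were lower and 2 higher. Serpinf2, the plasmin inhibitor, was at -0.91 ± 0.17 and Plg, which encodes plasminogen, at 0.43 ± 0.24 (SD, n = 4). Serpine2, an inhibitor of plasminogen activators and thrombin, was at -0.34 ± 0.43, and Plat, the tissue plasminogen activator, at 0.35 ± 0.31 (SD, n = 4; limma adjusted p = 0.0258 and 0.0471), each with arrays on both sides of 0. Plat lost its call under 10 of 17 alternatives (limma adjusted p up to 0.149) and Serpine2 under 6 of 17 (up to 0.243).

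Of 24 tested substrates of ADAM shedding, 8 were lower and 1 higher. Kl, the kidney hormone and co-receptor Klotho, was at -0.60 ± 0.12 and Vcam1, an adhesion molecule, at -0.70 ± 0.40 (SD, n = 4), while Btc, an EGF receptor ligand, was higher at 0.39 ± 0.16 (SD, n = 4). Of 22 proteoglycan and glycoprotein substrates, 7 were lower and 5 higher. Fn1, fibronectin, was at -0.57 ± 0.22 and Vwf, the substrate of Adamts13, at 1.08 ± 0.17 (SD, n = 4). Adamts13 itself was on no array well above background. Vtn, vitronectin, was also higher, at 0.61 ± 0.35 (SD, n = 4). Spp1, osteopontin, was at 0.14, 0.07, -1.14 and -1.18 on arrays 1 to 4, low on the same arrays as Mmp3.

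The 30 members not tested included 13 whose probes were well above background on 0 arrays in either dye, among them Mmp20, Mmp21, Mmp25, Adam12 and Adamts19. Another 12 were well above background on 1 to 3 arrays, among them Mmp10, Mmp12 and Mmp19. The last 5, Adam1b, Adam2, Adam3, Adam26a and Mmp16, were well above background on all 4 arrays in 1 dye or the other but not in 1 genotype throughout. No fold is given for these 30.

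Agilent's own processed signals moved the ratios of dim members farther from 0. With them 9 of the 14 called members changed by over 1.5 times on the log2 scale: Adam5 was at -3.30, Adamts8 at -2.62, Mmp2 at -1.41, Mmp13 at -1.44, Mmp3 at -1.13, Adam11 at -0.93, Timp1 at -0.44, Adamtsl5 at -0.49 and Adamts4 at 1.43. All of these passed in limma, and with Timp4 and Adamts6 also called higher the split became 4 higher and 12 lower, or 25.0% higher against 14.3%. The authors' deposited table lists signed folds of -5.917 for Adam5, -4.132 for Adamts8, -2.364 for Mmp2 and 2.003 for Adamts4. At an adjusted p under 0.05 the authors' deposited table has 9 members lower and 2 higher.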

How the data were processed

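Array scanner files of kidney RNA were analysed. Per the file headers, spot and background intensities came from Agilent Feature Extraction 9.5.3.1 and were not normalised; its processed intensities and log10 ratios, background-subtracted and dye-normalised per the file headers, served as an alternative and a check of direction. Flags are those of the deposited files. The authors deposited log2 ratios, signed folds (a score) and adjusted p-values made by steps not given in the sources used here.

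Here, intensities were background-corrected (limma 3.58.1, R 4.3.3; normexp, offset 50) and loess-normalised within arrays (span 0.3, 4 iterations), where control spots and outlier flags had no weight. Ratios were turned to Th3 over control and fitted with a dye term. A gene took its brightest kept probe with values on at least 3 arrays. Levels were also quantile-normalised on average intensity between arrays (Aquantile). Between 61.8% and 72.2% of probes were well above background in the Th3 or the control sample of an array. The 4 arrays limit precision. The fit was tested on simulated data.

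Of 41174 probes, 23483 were named by accession, 6678 by symbol and 2887 by synonym through the RefSeq table, and 8126 kept the name in the file. Named by rule were all 14 called members, every TIMP, the brightest uncalled Mmp, Adam and Adamts gene, and up to 2 called genes in each direction per pathway list; other genes were named after their values were seen. Members and lists were chosen with earlier results of these data known. Alternatives were the background correction, centring, scaling, filters, design, probe rule, deposited ratios and leaving out each array.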

Additional observations from a re-analysis of the deposited data

Results flagged for a closer look

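In each of the 45 tested members, the highest or lowest of the 4 arrays was compared with the nearest of the others, as a share of the whole range. In 3 members 1 array stood apart by Dixon's 95% limit, and chance marks about 1 in 20 groups. For Adamts15 the gap of array 3 was 0.857 of the range. For Mmp17 the gap of array 1 was 0.964 of the range. For Mmp2 the gap of array 4 was 0.841 of the range, on the side away from 0. Mmp17 and Adamts15 did not pass the test in limma over 4 arrays.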

How the results depend on the processing

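Of the 14 called members, 9 passed with the same sign under all 17 alternatives (Adam5, Adam8, Adam11, Adamts4, Adamts5, Adamts8, Mmp2, Mmp13 and Timp3), and 0 changed sign. Of the 16 pathway genes named by rule, 10 passed under every alternative they were fitted in; the others were Mep1b, Serpine2, Plat, Plg, Spp1 and Vtn. The count of members called higher, 2, became 4 with Agilent's processed signals, 4 with the authors' deposited log2 ratios and 1 with log ratios scaled between arrays. The alternatives that left out 1 array kept the dye term, so 1 remaining array was alone in its dye orientation. That array adds nothing to the residual, so passing in these fits, which are among the 17, says little about robustness. The count called lower was 8 with the pair of arrays as a random block, which lost Adamtsl2, Adamtsl5, Mmp3 and Timp1, and 9 without the dye term. The share of all genes called, in either direction, was 21.5% as reported, 6.81% with that block and 11.3% without the dye term. Leaving out array 2 added a call of Mmp17, at 1.06, and leaving out array 4 a call of Adamts15, at 0.55. In these fits the array that stood apart, array 1 for Mmp17 and array 3 for Adamts15, is the only array of its dye orientation. It therefore adds nothing to the residual. Each ratio already pairs the Th3 and the control sample of 1 array, and the 4 arrays form 1 group of ratios, so no further pairing was made. All arrays were on 1 slide and 1 scan, and dim members such as Adam5 are limited by signal over background.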
